A study of Mus musculus with 6 samples.

Results

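The genes described here encode the proteins of the mitochondrial ribosome and carry mouse symbols that start with Mrpl or Mrps followed by a digit. Names ending in -ps, which mark pseudogenes, were left out. The rule found 77 genes among the 29139 rows of the count table, 48 named Mrpl and 29 named Mrps. Mrpl53 was not analysed here. Messenger RNA was measured by sequencing in 2-cell embryos of the ICR mouse strain kept in KSOM, a culture medium for preimplantation embryos. The medium held either 75 µM MS-444, a small molecule reported to inhibit the RNA-binding protein HuR (Elavl1), or 0.1% DMSO, the solvent. Each group had 3 libraries, numbered here by the replicate in their labels, and the labels give 16 embryos as the lysed material. Because the labels do not say that the replicates came from separate mothers or cultures, the p-values below measure only the spread between these libraries, which may be technical.

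The mitochondrial ribosome translates the few proteins encoded by mitochondrial DNA, all of them subunits of the oxidative phosphorylation complexes. Its rRNAs come from the mitochondrial genome, whereas its proteins are encoded in the nucleus, made in the cytosol and imported. Mrpl proteins belong to the large subunit, which forms peptide bonds, and most Mrps proteins to the small subunit, which reads the message. Some descend from bacterial ribosomal proteins and others are found only in mitochondrial ribosomes. In the early mouse embryo the transcripts present at the 2-cell stage are partly left from the oocyte and partly made by the newly activated embryonic genome.

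Promoter sequence is shown for the 3 genes of largest rise with a RefSeq entry and for the gene of largest fall, since promoters of nuclear genes for mitochondrial proteins often hold sites of ETS-family factors such as GABP, of NRF1 and of YY1. Each line gives the 150 bases before the annotated start, on the strand of the gene, from RefSeq on GRCm38.p6. They lie at chr19:45006443-45006592 on the minus strand (Mrpl43), chr8:71464776-71464925 on the plus strand (Mrpl34), chr2:24975099-24975248 on the minus strand (Mrpl41) and chr13:99344636-99344785 on the plus strand (Mrps27). Capitals mark the ETS core letters CCGGAAG or their reverse complement CTTCCGG.
Mrpl43: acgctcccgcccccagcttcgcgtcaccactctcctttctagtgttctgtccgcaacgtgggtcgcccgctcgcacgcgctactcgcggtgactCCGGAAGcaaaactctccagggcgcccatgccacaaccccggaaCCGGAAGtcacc
Mrpl34: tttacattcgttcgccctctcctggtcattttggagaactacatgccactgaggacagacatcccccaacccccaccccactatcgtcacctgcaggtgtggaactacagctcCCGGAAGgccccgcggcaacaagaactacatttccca
Mrpl41: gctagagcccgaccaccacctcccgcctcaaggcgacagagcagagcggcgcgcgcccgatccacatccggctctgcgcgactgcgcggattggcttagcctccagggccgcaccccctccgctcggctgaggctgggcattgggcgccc
Mrps27: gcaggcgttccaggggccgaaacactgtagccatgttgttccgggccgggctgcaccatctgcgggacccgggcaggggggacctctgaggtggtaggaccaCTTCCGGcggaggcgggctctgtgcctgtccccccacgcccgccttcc
Mrpl43 held the ETS letters at 2 places in the stretch, starting 56 and 12 bases before the start. Mrpl34 and Mrps27 held them at 1 place each, and Mrpl41 showed no match to any of the 3 searched cores in its window.

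Library totals ranged from 2637763 to 4695866 counts. PCR reads are not independent molecules, so depth bounds counting error only. The table showed its labelled origin: all 17 oocyte and embryo markers with a row were detected in every library. Their summed level was 33360 to 38570 CPM (counts relative to the TMM-scaled size of a library) in DMSO and 15770 to 23950 CPM in MS-444, and 6 of the 17 were lower. Markers of other cell types were scarce. The 13 cumulus and granulosa markers with a row summed to 12.9 to 14.0 CPM in DMSO and 26.0 to 31.1 CPM in MS-444. Of these markers, 3 to 7 were at 0 in a library. Only 3 of them were tested, and Amhr2 was the 1 that passed. Of the 3, 2 had a positive and 1 a negative log2 fold change (-1.02). The 6 blood markers with a row summed to 5.87 to 11.3 CPM and 17.2 to 29.0 CPM, with 2 tested and Hba-a1 higher. The 6 sperm markers summed to 1.20 to 6.68 CPM and 4.18 to 4.85 CPM, with 0 tested. The part of these differences in the results below was not tested. In bulk libraries, fewer cells of a type and less RNA per cell cannot be told apart.

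The level of the mitochondrial ribosomal protein genes varied between libraries within each group. Their summed level was 1586, 2662 and 1479 CPM in DMSO libraries 1, 2 and 3 and 1881, 2723 and 2320 CPM in MS-444 libraries 1, 2 and 3. The ranges of the groups overlapped, because DMSO library 2 lay above MS-444 libraries 1 and 3. Of the 73 genes that passed the filter on low counts, DMSO library 2 was the highest DMSO library for 55 and DMSO library 3 the lowest for 43. Among the MS-444 libraries, number 1 was the lowest for 53 genes and number 2 the highest for 46. Relative to the DMSO mean, the median gene stood at -0.17, 0.49 and -0.29 on the log2(CPM + 1) scale in DMSO libraries 1, 2 and 3 and at 0.11, 0.69 and 0.53 in the MS-444 libraries.

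**Figure D1:**
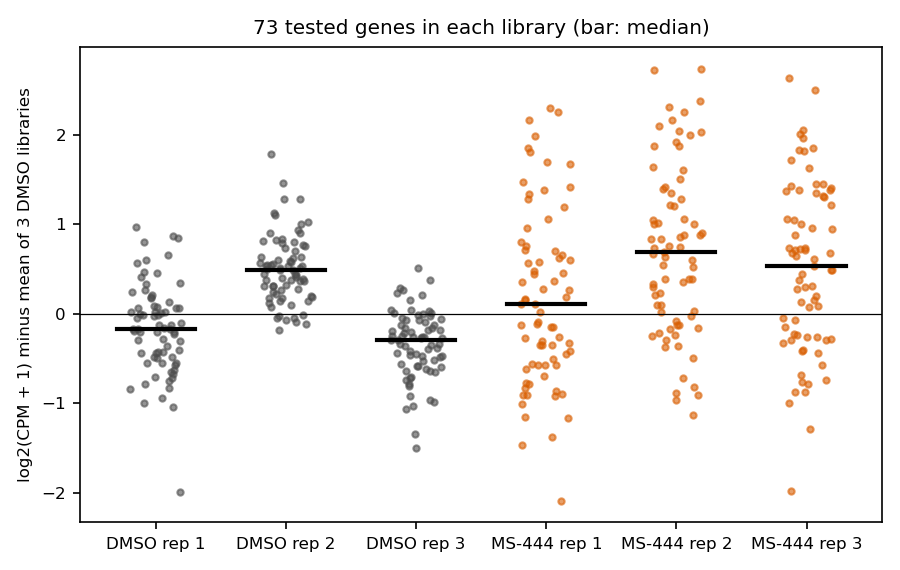
Each point is 1 of the 73 tested genes; the vertical axis gives its log2(CPM + 1) in a library minus its mean over the 3 DMSO libraries, and bars mark the median. DMSO library 2, with a median of 0.49, lies nearer to MS-444 libraries 2 and 3 (0.69 and 0.53) than to the other DMSO libraries.

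With MS-444, 17 of the 73 tested genes rose, 3 fell and 53 did not pass the test (edgeR's quasi-likelihood test, adjusted p under 0.05 over the 11864 genes tested in the whole table). Among the rises, Mrps34 and Mrps18c reached the minimum of the count filter, scaled to library size, only in MS-444 libraries. The share called in either direction was 27.4%, against 25.5% of all tested genes, and so close to the background. By direction, 23.3% of the tested genes of the mitochondrial ribosome rose against a background of 14.4%, and 4.11% fell against 11.1%. Their median log2 fold change was 0.40, with a range of -1.58 to 2.81, and the median of all tested genes was 0.02. All MS-444 libraries lay above all DMSO libraries for 21 genes and below them for 7, against backgrounds of 23.0% and 20.9% of all tested genes, and the groups overlapped for 45. Single libraries moved these counts and those of all genes. The number that rose was 11 without DMSO library 3, 6 without MS-444 library 2 and 9 without MS-444 library 3. These were 15.1%, 8.22% and 12.3% of the tested members, against 7.1%, 5.23% and 5.57% of all genes in the same fits. The median of the members was 0.73 without DMSO library 2 and 0.26 without DMSO library 1. It was 0.12 without DMSO library 3 and 0.16 without MS-444 library 2. The number that fell was 5 without DMSO library 1, 1 without DMSO library 2 or MS-444 library 2, 2 without DMSO library 3 and 0 without MS-444 library 1 or 3. Over the fits with 1 library left out, 0 to 6.85% of the members fell, against 4.15% to 13.4% of all genes. After correcting for GC and length of transcripts, 12 rose and 5 fell, which is 16.4% and 6.85% of the tested members against 14.5% and 17.2% of all genes, with a median of 0.11 against -0.08. Without TMM scaling, which moved the median of all genes to 0.20, 18 rose and 1 fell. These were 24.7% and 1.37% of the tested members, against 18.4% and 7.43% of all genes.

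**Figure D2:**
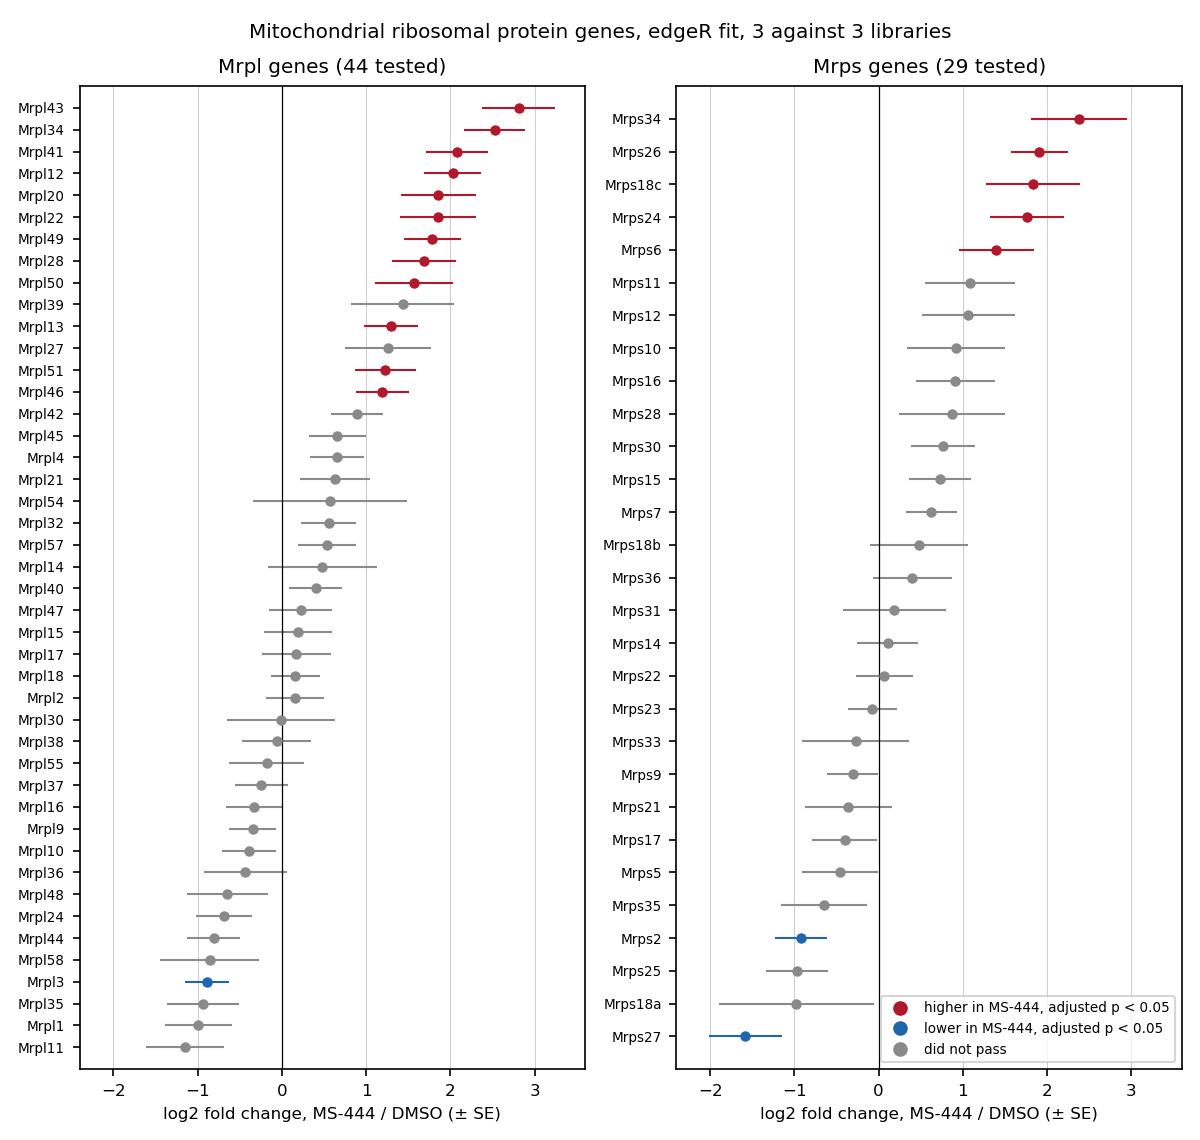
Points give the log2 fold change (MS-444 over DMSO, horizontal axis) of the 44 Mrpl and 29 Mrps genes tested, bars its standard error, and colours the call. The genes run from Mrpl43 at 2.81 to Mrps27 at -1.58, with 17 higher and 3 lower.

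By name, 12 of 44 tested Mrpl genes rose and 1 fell (median log2 fold change 0.44), and 5 of 29 tested Mrps genes rose and 2 fell (median 0.40). Placed by their position in the ribosome, 12 of 46 genes of the large subunit rose and 1 fell, and 5 of 26 of the small subunit rose and 2 fell. Among proteins classed here as of bacterial ancestry, 9 of 43 rose and 2 fell (median 0.22). Among those classed as mitochondria-specific, 8 of 29 rose and 1 fell (median 0.48). The second class holds Mrps18a and Mrps18b, although their relative Mrps18c is in the first. The differences between these classes were not tested. The Mrps median was -0.01 without DMSO library 3, 0.73 without DMSO library 2 and 0.23 without MS-444 library 3, and the Mrpl median 0.17 and 0.15 without DMSO libraries 1 and 3 and 0.13 without MS-444 library 2. Without MS-444 library 2, the Mrpl genes that rose numbered 5 and the Mrps genes 1. Without DMSO library 3 or MS-444 library 3, the Mrps genes that rose numbered 3 and 1.

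Among the mitochondria-specific proteins of the large subunit, 6 of 19 tested genes rose and 0 fell. An unadjusted p under 0.05 was found for 9 of the 19, including Mrpl44, at a log2 fold change of -0.81. That share is near the background, since 4754 of all 11864 tested genes had such a p. The largest change of the whole set was that of Mrpl43 (ENSMUSG00000025208). It was at 4.40, 3.45 and 1.53 CPM in DMSO libraries 1, 2 and 3 and at 18.3, 25.1 and 21.4 CPM in MS-444 libraries 1, 2 and 3. Every MS-444 library thus lay well above every DMSO library. The log2 fold change was 2.81 (SE 0.43, adjusted p = 0.0038). Of its exon sequence, 33.4% overlaps Twnk on the other strand, the gene of the mitochondrial DNA helicase, at a log2 fold change of 1.34 (adjusted p = 0.056). Strand use in the counting was not given in the sources used here, so reads of such a pair cannot be told apart. Exons of 30 of the 77 genes overlap another gene of the table.

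Mrpl41 (ENSMUSG00000036850), whose human protein has been reported to bind the apoptosis regulator BCL2, was at 9.59, 21.9 and 10.5 CPM in the DMSO libraries and 49.8, 72.3 and 57.5 CPM in the MS-444 libraries. Its lowest MS-444 value exceeded its highest DMSO value, that of library 2. The log2 fold change was 2.08 (SE 0.37, adjusted p = 0.0059). Mrpl49 (ENSMUSG00000007338) rose from 11.2, 14.5 and 8.16 CPM to 32.2, 48.7 and 36.2 CPM, again with no overlap (log2 fold change 1.78, SE 0.34, adjusted p = 0.0071). Mrpl43, Mrpl41 and Mrpl49 passed in each of the 16 alternative fits. The remaining 3 were named after their values were seen: Mrpl50 (1.57), Mrpl51 (1.23) and Mrpl46 (1.19) on the log2 scale. Their groups did not overlap, but their calls were lost without DMSO library 3 (1.33, 0.92 and 0.89), MS-444 library 2 (1.11, 0.93 and 1.13) or MS-444 library 3 (1.66, 1.19 and 1.17). The call of Mrpl50 was also lost without DMSO library 1 (1.26), and that of Mrpl46 without MS-444 library 1 (1.14).

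Large-subunit proteins of bacterial ancestry gave 6 rises and 1 fall among 27 tested genes. Mrpl34 (ENSMUSG00000034880), of the bacterial L34 family, was at 14.4, 20.9 and 8.42 CPM in DMSO and 64.8, 97.4 and 90.5 CPM in MS-444. No DMSO library came near the MS-444 range. The mean went from 14.6 ± 6.27 to 84.2 ± 17.2 CPM (SD, n = 3), which is 2.52 on the log2 scale (SE 0.36, adjusted p = 0.0031). Mrpl12 (ENSMUSG00000039640), a protein of the ribosomal stalk that has also been reported to bind the mitochondrial RNA polymerase, was at 15.6, 13.6 and 8.42 CPM in DMSO and 41.8, 64.2 and 46.6 CPM in MS-444. The groups stood apart, by 2.03 on the log2 scale (SE 0.34, adjusted p = 0.0049). Both calls held in all 16 alternatives. The other stalk and stalk-base genes did not pass: Mrpl10 had a log2 fold change of -0.39 and Mrpl11 of -1.15 (adjusted p = 0.39 and 0.091).

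Mrpl20 was at 19.2, 9.21 and 5.61 CPM in DMSO and 52.0, 39.7 and 29.4 CPM in MS-444 (log2 fold change 1.86, SE 0.45, adjusted p = 0.015). Mrpl22, whose bacterial relative lines the exit tunnel of the growing peptide, was at 10.4, 16.6 and 4.08 CPM against 38.8, 42.1 and 32.0 CPM (1.85, SE 0.45, adjusted p = 0.016). For Mrpl28 the values were 5.60, 10.6 and 8.16 CPM against 30.0, 32.6 and 17.5 CPM (1.69, SE 0.38, adjusted p = 0.012). None of these genes overlapped between groups, though MS-444 library 3 was the lowest MS-444 library of each. All 3 calls were lost without MS-444 library 2 (1.81, 1.70 and 1.46), that of Mrpl20 also without MS-444 library 1 (1.58), and those of Mrpl20 and Mrpl28 with the GC and length correction (1.28 and 1.13). Mrpl13, named after its values were seen, rose by 1.30 on the log2 scale. Its call was lost without DMSO library 3 (1.0), MS-444 library 2 (1.30) or MS-444 library 3 (1.26).

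The 1 large-subunit gene that fell was Mrpl3 (ENSMUSG00000032563), whose bacterial relative reaches towards the peptidyl transferase centre. It was at 88.0, 68.4 and 64.0 CPM in DMSO and 35.5, 43.9 and 39.1 CPM in MS-444. Every MS-444 library was below every DMSO library. The log2 fold change was -0.89 (SE 0.26, adjusted p = 0.032). The call was lost without MS-444 library 1 (-0.88), 2 (-1.03) or 3 (-0.90) and with library totals in place of TMM (-0.71).

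**Figure D3:**
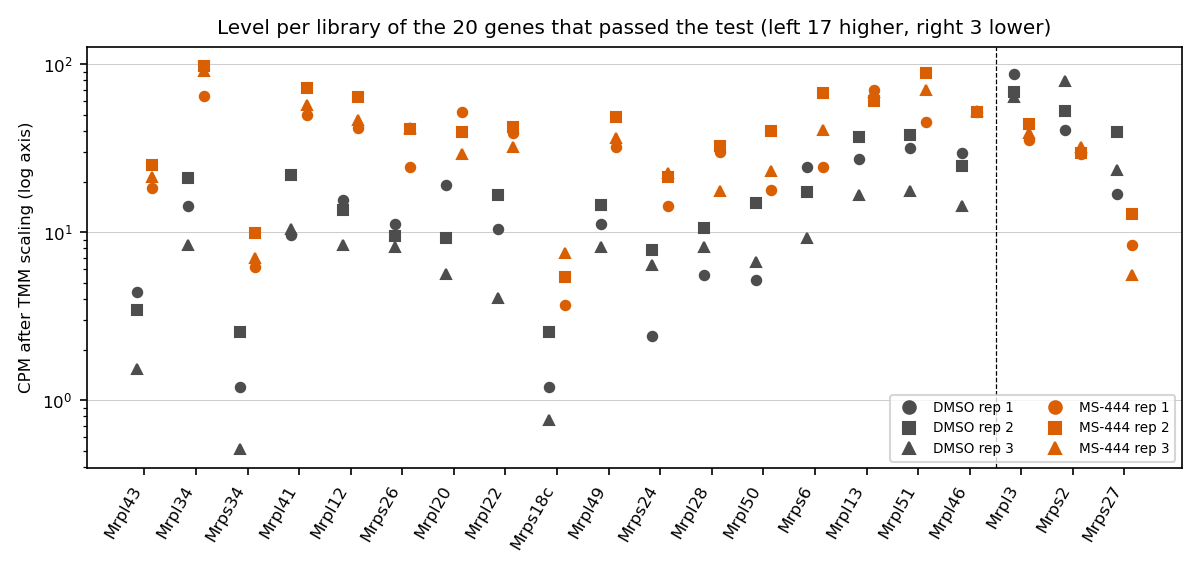
Levels in CPM (log axis) of the 20 genes that passed the test, 17 higher on the left and 3 lower on the right, with 1 symbol per library. For each of them the 3 DMSO and 3 MS-444 libraries do not overlap; Mrps6 comes closest, with 24.4 CPM in DMSO library 1 and 24.5 CPM in MS-444 library 1.

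In the small subunit, Mrps34 (ENSMUSG00000038880) changed most. This mitochondria-specific protein is needed in mice for the stability of the small-subunit rRNA. It was rare, with 3, 11 and 2 counts in the DMSO libraries and 17, 33 and 29 counts in the MS-444 libraries. These counts equal 1.20, 2.53 and 0.510 CPM against 6.23, 9.86 and 7.04 CPM. Mrps34 reached the minimum of the count filter, scaled to library size, only in MS-444 libraries. It was thus tested only through the group where it was high. The MS-444 values all lay above the DMSO values (log2 fold change 2.38, SE 0.57, adjusted p = 0.015). The call was lost without MS-444 library 2 (2.10) or 3 (2.43), and 63.4% of its exon sequence overlaps Mapk8ip3 on the other strand, at a log2 fold change of 0.45 (adjusted p = 0.40). Mrps34 also overlaps Nme3 on the same strand over 37.0% of its exon sequence, and Nme3 was not analysed here.

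Mrps26 (ENSMUSG00000037740), also mitochondria-specific, was at 11.2, 9.44 and 8.16 CPM in DMSO and 24.5, 41.2 and 41.5 CPM in MS-444. All DMSO values lay in a narrow band below the MS-444 values. The log2 fold change was 1.91 (SE 0.34, adjusted p = 0.0059), and it was the 1 Mrps gene that passed in all 16 alternatives. Mrps24 was at 2.40, 7.83 and 6.38 CPM in DMSO and 14.3, 21.2 and 22.6 CPM in MS-444 (1.76, SE 0.44, adjusted p = 0.017), and its call was lost without MS-444 library 2 (1.63) or 3 (1.63) and with the GC and length correction (1.13).

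Mrps18c, 1 of a trio of related Mrps18 genes, had 3, 11 and 3 counts in DMSO and 10, 18 and 31 counts in MS-444, or 1.20, 2.53 and 0.765 CPM against 3.66, 5.38 and 7.52 CPM. Its groups did not overlap, but the counts were low (log2 fold change 1.83, SE 0.56, adjusted p = 0.037). Like Mrps34, it reached the scaled minimum of the count filter only in MS-444 libraries. The call was lost without DMSO library 1 (1.66) or 3 (1.45), without MS-444 library 1 (1.98), 2 (1.79) or 3 (1.53), with quantile normalization (1.0) and with the GC and length correction (1.35). Its relative Mrps18b had a log2 fold change of 0.48 and did not pass. Mrps6, named after its values were seen, rose by 1.40 on the log2 scale with groups that barely parted. The call was lost without DMSO library 2 (1.37) or 3 (1.05) and without MS-444 library 2 (0.89) or 3 (1.45). Quantile normalization (1.2) and the GC and length correction (0.69) also ended it. The gene Gm49711, with 29 counts over the 6 libraries, overlaps 19.9% of the exon sequence of Mrps6 on the same strand. The sodium and myo-inositol transporter gene Slc5a3, which shares 10.4% of the exon sequence of Mrps6 on the same strand, was higher by 2.2 on the log2 scale (adjusted p = 0.018).

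Mrps27 and Mrps2 fell. Mrps27 (ENSMUSG00000041632), a pentatricopeptide repeat protein of the small subunit, was at 16.8, 39.4 and 23.5 CPM in DMSO and 8.43, 12.8 and 5.58 CPM in MS-444. The highest MS-444 library lay below the lowest DMSO library. The log2 fold change was -1.58 (SE 0.43, adjusted p = 0.025), and the call was lost without DMSO library 2 (-1.24) or MS-444 library 1 (-1.60) or 3 (-1.33). Mrps2 (ENSMUSG00000035772), of bacterial ancestry, was at 40.4, 52.7 and 79.4 CPM in DMSO and 29.3, 29.6 and 32.3 CPM in MS-444. The MS-444 libraries were close together and below all DMSO libraries (-0.92, SE 0.30, adjusted p = 0.048). That call was lost without DMSO library 2 (-1.05) or 3 (-0.66), and without MS-444 library 1 (-0.95), 2 (-0.96) or 3 (-0.98). Library totals (-0.73) and limma-trend (-0.84) also ended it.

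The genes with the most counts did not pass the test. Mrpl48, a mitochondria-specific protein of the large subunit, was at 82.8, 406 and 138 CPM in DMSO and 109, 153 and 140 CPM in MS-444. DMSO library 2 stood far above the other 5 libraries, among which the groups overlapped. The log2 fold change of -0.65 (SE 0.48, adjusted p = 0.34) became 0.21 without that library. Its pseudogene Mrpl48-ps, a near copy that could share reads, had 15 counts in DMSO library 2 and 1 to 13 in the others. Mrpl18 was at 103, 146 and 71.4 CPM against 117, 134 and 108 CPM (log2 fold change 0.16), and Mrps14 at 55.6, 150 and 76.8 CPM against 79.1, 113 and 112 CPM (0.10). Both overlapped between groups, and both differences changed sign in some fits with 1 library left out. Mrpl18 stood at -0.11 without DMSO library 3, and Mrps14 at -0.22, -0.07 and -0.05 without DMSO library 1, DMSO library 3 or MS-444 library 2. For Mrpl40 the values were 95.1, 99.4 and 54.1 CPM against 81.0, 134 and 113 CPM (0.40), a difference of 0.12 without DMSO library 3, 0.16 without MS-444 library 2 and 0.02 with the GC and length correction. Mrpl24 was at 93.1, 150 and 81.7 CPM against 46.5, 89.9 and 64.8 CPM (-0.69, adjusted p = 0.15), and it passed as lower with the GC and length correction (-0.95).

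Scaled by transcript length, the order of levels differed between the groups. Per kilobase of the longest protein-coding transcript, the mean DMSO level was highest for Mrpl18 (87.7 CPM), followed by Mrpl24 (80.8 CPM), Mrpl40 (64.8 CPM) and Mrpl48 (48.7 CPM). The place of Mrpl48 rests on DMSO library 2, at 406 CPM before the division by length, against 82.8 and 138 CPM in the others. In MS-444 it was highest for Mrpl34 (138.8 CPM, against 24.0 CPM in DMSO), followed by Mrpl18 (98.1 CPM), Mrpl40 (85.4 CPM) and Mrpl41 (77.2 CPM, against 18.0 CPM). The spread of Mrpl24 and Mrpl18 between libraries exceeded the gap between them. The lowest of the 73 tested genes in DMSO was Mrpl39, at 0.608 CPM per kilobase.

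Names and places differ for a few members. Mrps30 and Mrps18a sit in the large subunit despite their names, and Mrps36 is now regarded as a subunit of the 2-oxoglutarate dehydrogenase complex. Mrps30 was at 80.4, 56.2 and 28.6 CPM in DMSO and 70.7, 125 and 83.7 CPM in MS-444 (log2 fold change 0.76, adjusted p = 0.16). Mrps36 was at 3.20, 3.91 and 2.04 CPM against 3.30, 3.58 and 5.10 CPM (0.40, adjusted p = 0.55). Mrps18a had 0 counts in DMSO library 1, which allows a level of up to 1.20 CPM (3 counts), but 12.7 and 3.57 CPM in the other DMSO libraries and 1.10, 3.88 and 3.40 CPM in MS-444. In all 3 genes the groups overlapped. The 4 members that were not tested, Mrpl19, Mrpl23, Mrpl33 and Mrpl52, had 19 to 37 counts each over the 6 libraries. In CPM, Mrpl19 and Mrpl23 were higher in every MS-444 library than in any DMSO library, as were 23.0% of all tested genes. Their counts did not separate. Mrpl19 had 6 counts in both DMSO library 2 and MS-444 library 1. Mrpl23 had 4 counts in DMSO library 2 and 3 in MS-444 library 1.

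Genes with shorter transcripts had higher fold changes, in this set and in the whole table. Of the 11 tested genes with transcripts under 800 bases, 4 rose and 0 fell (median log2 fold change 0.89), and of the 19 from 800 to under 1200 bases 6 rose and 0 fell (0.73). Among the 43 genes of 1200 bases and over, 7 rose and 3 fell (0.11). Over all tested genes, 25.7%, 26.4% and 12.5% rose in these classes, with medians of 0.78, 0.55 and -0.06. Falls were rare among short transcripts there too, at 2.23%, 4.6% and 12.4% in the same classes. Across the 73 genes, which share the same libraries, Pearson's r between fold change and log2 length was -0.39 (Spearman's rho -0.41), against -0.20 over all tested genes, and r with GC content was 0.29. The longest transcripts among the genes that rose were those of Mrps26 and Mrpl51, with 4278 and 3427 bases. The GC and length correction ended the calls of Mrpl20, Mrps18c, Mrps24, Mrpl28 and Mrps6 and added Mrpl24 and Mrpl44 as lower.

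**Figure D4:**
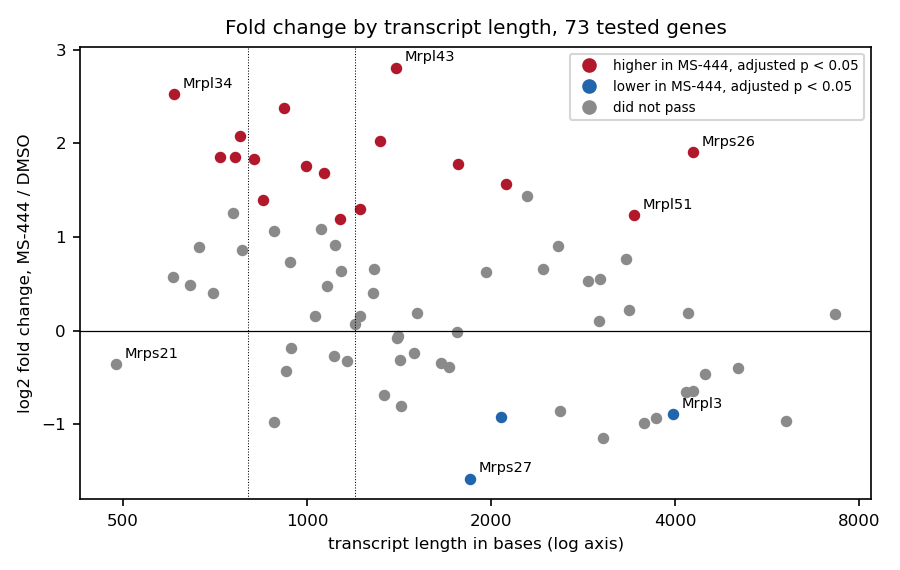
Log2 fold change (vertical axis) against the length of the longest protein-coding transcript in bases (log axis) for the 73 tested genes, coloured by call; dotted lines mark 800 and 1200 bases. The 30 genes left of 1200 bases include 10 that rose and 0 that fell, and the 43 others 7 that rose and 3 that fell. Over all tested genes, 2.23% fell under 800 bases, 4.6% from 800 to under 1200 and 12.4% from 1200.

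Of the proteins of the mitochondrial ribosome with other names, Aurkaip1 rose and Dap3 fell, both in the small subunit and both in all 16 alternatives. Aurkaip1 was at 18.4, 16.8 and 15.3 CPM in DMSO and 52.0, 59.7 and 53.6 CPM in MS-444 (log2 fold change 1.71, SE 0.27, adjusted p = 0.004). Dap3, a GTP-binding protein of the head of the small subunit, was at 96.3, 130 and 123 CPM in DMSO and 45.8, 51.1 and 45.4 CPM in MS-444 (-1.30, SE 0.25, adjusted p = 0.0076). Replicates of each group agreed closely, and the groups stood far apart in opposite directions. Gadd45gip1 (0.63), Ptcd3 (0.10) and Chchd1 (0.09) did not pass. The rRNAs around which these proteins assemble did not pass either, with log2 fold changes of 0.20 for mt-Rnr1 and 0.04 for mt-Rnr2.

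Translation factors and tRNA-modifying enzymes work with the mitochondrial ribosome. Of 13 tested genes of this kind, 0 rose and 4 fell (median log2 fold change -0.46). The falls were 30.8% of the list, against 11.1% of all tested genes. Calls in the whole table also moved with 1 library left out. Without DMSO library 1, 2 or 3, 16.3%, 8.46% and 7.1% of all genes rose and 13.4%, 7.8% and 7.21% fell. Without MS-444 library 1, 2 or 3, 10.1%, 5.23% and 5.57% rose and 8.98%, 4.38% and 4.15% fell. An unadjusted p under 0.05 was found for 6 of the 13. That share is near the background, with 4754 of all 11864 tested genes. The median of the list was -0.05 without DMSO library 1 (15 tested) and -0.10 without DMSO library 3 (13 tested). It was -0.26 and -0.25 without MS-444 libraries 1 and 2 (14 tested in each). With library totals it was -0.27, and with no filter on low counts 0.04 (18 tested). Gfm1, the elongation factor that moves the ribosome along the message, fell from 82.8, 71.8 and 84.5 CPM to 32.2, 31.7 and 23.3 CPM, without overlap (-1.46, SE 0.27, adjusted p = 0.0064), and did so in all 16 alternatives. Mtfmt, which formylates the initiator tRNA, fell by 1.32 on the log2 scale (adjusted p = 0.022), a call lost without DMSO library 3 (-1.27) or MS-444 library 2 (-1.33) or 3 (-1.48). The initiation factor Mtif3 (-0.98) and the tRNA-modifying enzyme Mto1 (-1.0) were the other falls, named after their values were seen. Without DMSO library 3, MS-444 library 2 or MS-444 library 3, 1 of these genes fell, and 2 did so without MS-444 library 1. In 4 alternatives 1 gene of this list rose: without DMSO library 1, with library totals, with limma-trend and with the GC and length correction. The last of these gave 5 falls.

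Of 11 tested mitochondrial tRNA synthetases, 5 rose and 1 fell (median 1.36), which is 45.5% and 9.09% against 14.4% and 11.1% of all tested genes. Of these 11, 6 had a positive and 5 a negative log2 fold change. The median was -0.15 without DMSO library 3 and 0.60 without DMSO library 2, with 13 and 12 synthetases tested. Without MS-444 libraries 1, 2 and 3 it was 0.49, 0.88 and 0.49, with 12, 14 and 13 tested. It was 0.62 to 0.69 with quantile normalization, no filter (19 tested) or a minimum mean of 5 CPM (8 tested). Most of these medians thus cover different genes from the main fit. Cars2 rose from 3.6, 4.60 and 6.12 CPM to 23.4, 15.2 and 21.1 CPM (2.04, SE 0.37, adjusted p = 0.0066), and Ears2 from 4.0, 2.07 and 1.53 CPM to 11.4, 11.4 and 11.6 CPM (2.22, SE 0.46, adjusted p = 0.0092). Named after their values were seen, Hars2 (2.77) and Mars2 (1.44) also rose, and Gars (-1.16), which serves the cytosol as well, fell. Lars2, the synthetase with the most counts, had a log2 fold change of -0.15 and did not pass. Without DMSO library 2 or 3 or any 1 of the MS-444 libraries, 2 synthetases rose. Among 21 tested assembly factors and rRNA-modifying enzymes, 2 rose and 5 fell (median 0.15). These were 9.52% and 23.8%, against 14.4% and 11.1% of all tested genes. Without DMSO library 1 the median was 0.03, with 23 tested. The GTPase Noa1 (1.65, adjusted p = 0.0097) and the pseudouridine synthase Trub2 (1.76, adjusted p = 0.012) rose, the latter not without MS-444 library 3 (1.55). The falls were Mettl15 (-1.75), Tfb1m (-1.52), Mterf4 (-1.38), Ngrn (-1.08) and Gtpbp10 (-1.08), named after their values were seen. Nsun4, an rRNA methyltransferase, had a log2 fold change of -0.46 and did not pass. Of the 5 falls, 2 were left without MS-444 library 2 and 0 without MS-444 library 3, and 1 of the rises was left without the latter.

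Among 16 tested genes of mitochondrial DNA maintenance, transcription and RNA processing, 4 rose and 2 fell (median 0.65). These were 25% and 12.5%, against 14.4% and 11.1% of all tested genes. Slirp and Lrpprc, whose proteins form a complex that stabilises mitochondrial messages, went in opposite directions. Slirp was at 2.40, 1.84 and 1.79 CPM in DMSO and 6.96, 7.77 and 5.58 CPM in MS-444 (1.75, SE 0.44, adjusted p = 0.019). It reached the scaled minimum of the count filter only in MS-444 libraries. Lrpprc was at 20, 23.9 and 36.0 CPM against 11.4, 11.9 and 12.4 CPM (-1.16, SE 0.33, adjusted p = 0.029). Slirp lost its call without DMSO library 2 (1.64) or 3 (1.63), without MS-444 library 2 (1.58) or 3 (1.86) and with quantile normalization (1.01). Lrpprc lost its call without DMSO library 3 (-0.93), without MS-444 library 1 (-1.19), 2 (-1.22) or 3 (-1.20) and with library totals (-0.98). Named after their values were seen, the RNA polymerase gene Polrmt (1.41), Trmt10c (1.25) and Ssbp1 (1.21) rose and the poly(A) polymerase gene Mtpap (-0.91) fell. The call of Polrmt held in 5 of 16 alternatives and in 0 of the 6 fits with 1 library left out. It was also lost with the replicate block, DESeq2, quantile normalization, no filter and the GC and length correction, and its log2 fold change ran from 0.86 to 1.61 over the alternatives. Tfb2m, an initiation factor of mitochondrial transcription, did not pass (0.52). The number that rose was 0 without DMSO library 2 or 3 or MS-444 library 2 or 3, and the number that fell was 0 without DMSO library 3 or MS-444 library 2 or 3.

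**Figure D5:**
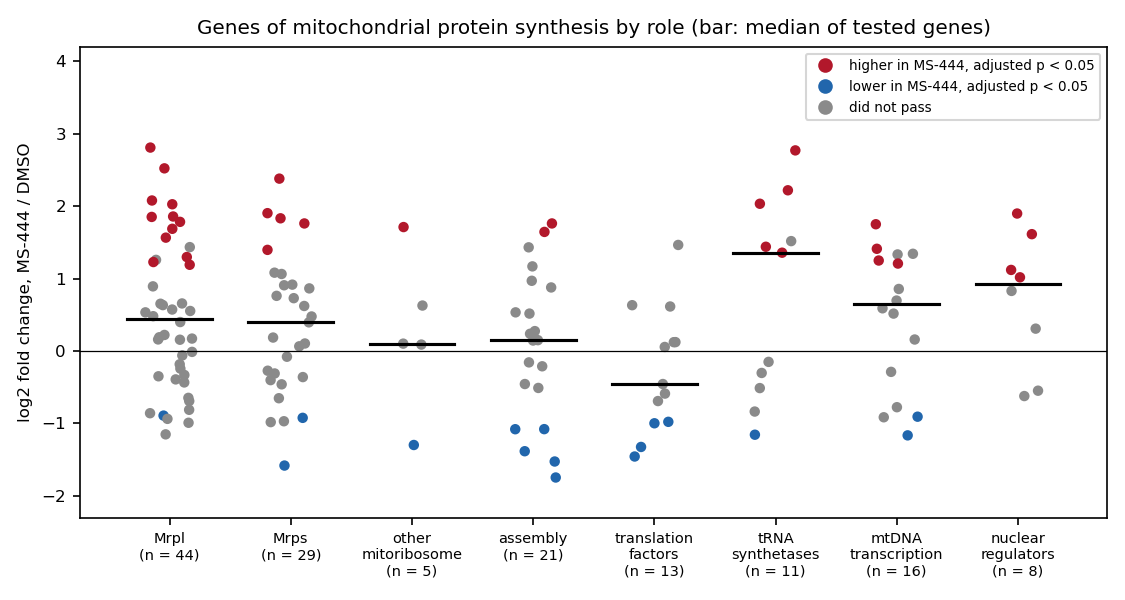
Log2 fold change (MS-444 over DMSO, vertical axis) of the tested genes by role in mitochondrial protein synthesis; each point is a gene coloured by call and bars mark medians. Of 13 translation factors 0 rose and 4 fell, and of 11 tRNA synthetases 5 rose and 1 fell, where 14.4% of all tested genes rose and 11.1% fell. Their medians were -0.46 and 1.36. Without DMSO library 3, when 13 genes of each list passed the filter, the medians were -0.10 and -0.15.

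The cytosolic ribosome and complex I gave the nearest comparison sets. Of 81 tested genes for cytosolic ribosomal proteins, 48 rose and 0 fell, with a median log2 fold change of 1.49 against 0.40 for the mitochondrial set. The rises were 59.3% of these genes, against 14.4% of all tested genes. The number that rose was 31 without DMSO library 3, 21 without MS-444 library 2 and 24 without MS-444 library 3, with medians of 1.20 to 1.84 over the fits with 1 library left out. Of 32 tested nuclear genes for subunits of complex I, a respiratory complex with subunits made by the mitochondrial ribosome, 8 rose and 1 fell (median 0.86). These were 25% and 3.12%, against 14.4% and 11.1% of all tested genes. Corrected for GC and length, 5 rose and 3 fell with a median of 0.33. The median was 1.31 without DMSO library 2 and 0.59 without DMSO library 3. The number that rose was 16 without DMSO library 2, 4 without DMSO library 3 or MS-444 library 3 and 2 without MS-444 library 2. The differences between these sets and the mitochondrial ribosomal proteins were not tested.

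Of 8 tested nuclear regulators of genes for mitochondrial proteins, 4 rose and 0 fell, where 14.4% of all tested genes rose and 11.1% fell. Yy1 was at 108, 61.5 and 97.7 CPM in DMSO and 419, 261 and 316 CPM in MS-444, with the groups far apart (log2 fold change 1.90, SE 0.30, adjusted p = 0.004), and passed in all 16 alternatives. Gabpa, which encodes the DNA-binding subunit of GABP, was at 257, 70.4 and 125 CPM against 748, 339 and 296 CPM (1.61, adjusted p = 0.034). Pprc1 (1.12), a coactivator, and Gabpb2 (1.02) also rose, whereas Gabpb1 (0.31), Myc (0.83), Ppargc1b (-0.55) and Nrf1 (-0.62) did not pass. The call of Gabpa was lost without DMSO library 2 (1.22) or 3 (1.45) or any MS-444 library (1.03, 1.74 and 1.84). Pprc1 lost its call without DMSO library 2 (1.05) or 3 (0.93) or MS-444 library 2 (1.05) or 3 (1.03). Gabpb2 lost it without DMSO library 1 (0.84) or 2 (0.89), without any MS-444 library (1.01, 1.07 and 0.84) and with no filter on low counts (0.96). Ppargc1a and Esrra, each at 0 counts in some libraries, were not tested. The number that rose was 1 without DMSO library 2, MS-444 library 2 or MS-444 library 3, and 2 without DMSO library 3 or MS-444 library 1.

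Promoter windows in RefSeq, from 250 bases before to 50 after the start, matched 68 of the 77 genes and gave 74 windows. The ETS core CCGGAAG was present on either strand in 33.8% of them, against 8.86% of 32851 windows of all genes. The NRF1 core TGCGCA, which reads the same on both strands, was present in 29.7% against 7.76%, and the YY1 core ATGGCGG in 16.2% against 4.05%. No core contains another, and a match is a description of sequence. Among the 15 windows of genes that rose, 40.0% held the ETS core, 20% the NRF1 core and 13.3% the YY1 core. In the 53 windows of tested genes that did not pass, the shares were 28.3%, 34.0% and 15.1%. Of the 3 windows of genes that fell, 2 held the ETS core, 2 the YY1 core and 0 the NRF1 core.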

How the data were processed

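The deposited file was 1 table of unnormalized counts of reads per gene, with 1 column for each library, as its whole numbers with unequal totals show. The submitters' processing notes name HISAT2 4.8.2, Cufflinks 2.2.1 and the build mm9. The counting program, its annotation, its use of strand and how it assigned multiply matching reads were not given in the sources used here. Symbols, transcript lengths and GC content came from GENCODE M21 (29075 of 29139 identifiers matched) and promoter sequence from RefSeq on GRCm38.p6, a build other than that of the notes.

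Genes were filtered with edgeR's default minimum of 10 counts, which kept 11864, and libraries were scaled by TMM (factors 0.933 to 1.11). Groups were compared with edgeR's quasi-likelihood test (edgeR 4.0.16, R 4.3.3), two-sided, with Benjamini-Hochberg adjustment over all genes tested and a threshold of 0.05. The test was run on simulated counts with planted changes, where only the sign and median size of the fold changes were required to match. That run set no bound on false calls in these libraries. Levels are CPM after TMM. Standard errors were derived from the test statistic. Alternatives used DESeq2 1.42.0, limma 3.58.1, other scalings and filters, a GC and length correction (mgcv 1.9.3), a replicate block, and fits with 1 library left out. The filter was applied anew with 1 library left out, so the tested genes of a list could differ between fits. Genes named are the 12 largest rises and falls among the members that passed, the 5 with the highest mean CPM, the 3 of uncertain placement, and, per further list, up to 2 passing genes and the most abundant, or every tested gene for the regulators and the proteins with other names. The members and lists were chosen with earlier results of these data known. Both groups were grouped by the treatment in the labels, and each library was a separate sample there. The values of 1 gene of the further lists are not reported here.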

Additional observations from a re-analysis of the deposited data

How the results depend on the processing

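Of the 17 genes of the mitochondrial ribosome that rose, 6 kept their call in all 16 alternatives (Mrpl43, Mrpl34, Mrpl41, Mrpl12, Mrps26 and Mrpl49), and of the 3 that fell, 0 did. None of the 20 changed sign in those fits. Median-ratio factors, robust dispersions and DESeq2 called 17, 17 and 18 as higher. The cause of the changes below was not tested. Library totals without TMM gave 881 genes of the whole table as lower, 1 of the mitochondrial ribosomal protein genes, 0 Mrpl and 1 Mrps. The GC and length correction gave 2036 of all genes, 5 of the set and 3 Mrpl genes as lower, and 2 Mrps genes as higher. Quantile normalization gave 2 Mrpl genes as lower and 3 Mrps genes as higher, a minimum mean of 5 CPM 3 Mrps genes as higher with 59 members tested, and limma-trend 1 Mrps gene as lower. Of the calls in the set, 85.0% were higher, against 94.7% with library totals and 70.6% with the correction. The whole table shifted in the same fits. Of all tested genes, 14.4% were higher and 11.1% lower in the main fit, and 18.4% and 7.43% with library totals. With the correction these shares were 14.5% and 17.2%. With 1 library left out, 659 to 2099 of all genes were higher and 500 to 1721 lower, 6 to 17 of the set were higher and 0 to 5 lower. In the same fits 5 to 12 Mrpl genes were higher and 0 to 2 lower, and 1 to 5 Mrps genes were higher and 0 to 3 lower. The median log2 fold change then ran from 0.12 to 0.73 for the set, 0.13 to 0.64 for Mrpl and -0.01 to 0.73 for Mrps.

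Whether the replicate numbers pair the libraries is not known. Deviations from the group means of same-numbered libraries correlated at 0.06, 0.37 and -0.10, and those of differently numbered libraries at -0.46 to 0.36. These values are tied to each other through the group means, so they cannot settle pairing. With the number as a block, 18 genes of the set were higher and 4 lower, among them 2 Mrpl genes as lower. Depth limited the rarest members, of which 4 were not tested and Mrps34 and Mrps18c rested on 2 to 11 counts in the DMSO libraries. Mrps34 and Mrps18c were tested only through the MS-444 libraries, the group where they were high.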
